A study of Caenorhabditis elegans with 2 samples.

Results

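The snoRNA genes described here are those that lie wholly inside a protein-coding gene on the same strand, taken from the nuclear genes of biotype snoRNA in the Ensembl annotation of WBcel235. There were 183 of them among 346 nuclear snoRNA genes, in 156 host genes. Peak lists from ChIP-seq, in which DNA bound by a protein is precipitated and sequenced, were available for SNPC-3.4. It is related to a subunit of SNAPc, the complex that binds promoters of small nuclear RNA (snRNA) genes. Both samples were biological replicates, numbered 1 and 2, of a single group. They were whole Caenorhabditis elegans of strain YL497, hermaphrodites at the young adult stage, with no treatment given in the labels. The strain carries T02C12.2 (snpc-3.4) fused at its C-terminus to GFP-FLAG, and an antibody to GFP was used. The sources used here do not say which promoter drives the fusion or whether untagged protein is also present. With whole worms, binding in many cells and strong binding in few cells cannot be told apart. With 1 group there was no contrast between conditions, so the comparisons are between gene sets, and no test over samples exists for them. Depth is unknown, because the lists give no read counts.

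Small nucleolar RNAs guide the chemical modification of other RNAs, mainly ribosomal RNA. Box C/D snoRNAs direct 2'-O-methylation with fibrillarin, and box H/ACA snoRNAs direct pseudouridylation with dyskerin. In vertebrates most are cut out of the introns of host transcripts and need no promoter of their own, whereas snRNA genes are transcribed from a promoter whose proximal sequence element, upstream of the start, is bound by SNAPc. Genes transcribed by RNA polymerase III, such as those of tRNAs, often use internal promoter elements called box A and box B. The question the comparisons address is at which of the host-embedded snoRNA genes SNPC-3.4 was found, and what those genes share.

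The upstream regions of 6 of the 7 members of highest peak signal are printed, to show the sequence around the strongest summits. The seventh, Y37E3.20, is not printed. Each line is the 100 bases upstream, 5' to 3' on the strand of the gene, read from the RefSeq WBcel235 genome. Capitals mark AACNCG and TGTCNG, which stand 5 bases apart in each of them.
ZK994.7: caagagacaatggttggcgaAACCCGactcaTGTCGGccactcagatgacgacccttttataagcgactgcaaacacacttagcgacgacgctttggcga
W04D2.7: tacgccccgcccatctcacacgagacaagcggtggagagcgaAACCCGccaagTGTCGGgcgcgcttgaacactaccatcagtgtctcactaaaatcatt
C16D9.11: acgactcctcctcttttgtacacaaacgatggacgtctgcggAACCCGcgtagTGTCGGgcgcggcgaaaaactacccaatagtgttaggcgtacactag
C08D8.3: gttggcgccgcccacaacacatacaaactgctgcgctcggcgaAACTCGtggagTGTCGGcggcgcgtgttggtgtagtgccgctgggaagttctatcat
F01D5.12: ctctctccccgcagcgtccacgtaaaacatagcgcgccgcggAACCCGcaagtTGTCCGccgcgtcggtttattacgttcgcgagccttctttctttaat
F54F11.6: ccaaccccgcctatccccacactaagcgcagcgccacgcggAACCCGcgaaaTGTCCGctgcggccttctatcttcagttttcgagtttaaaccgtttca
These regions lie at chrV:8500479-8500578 (plus strand), chrV:12491180-12491279 (plus), chrV:8228970-8229069 (minus), chrV:8349008-8349107 (plus), chrII:14018442-14018541 (minus) and chrII:13521201-13521300 (plus). The pattern starts 80, 58, 58, 57, 58 and 59 bases upstream of the 5' end in that order. The peak summits lie 42, 51, 49, 28, 54 and 48 bases upstream.

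The split pattern was written from those 6 sequences after they had been seen, so their own matches are no finding. It was then searched on the strand of each gene between 20 and 100 bases upstream. It was present at 11 of 35 bound members (31.4%, 95% Wilson interval 18.6 to 48%) and at 1 of 148 members that were not bound (0.676%, 0.119 to 3.73%). Without the 6 it was written from, it was present at 5 of 29 bound members (17.2%, 7.6 to 34.5%), namely Y37E3.20, T06D8.11, T19C4.11, Y73B6A.14 and smy-2. Among snoRNA genes outside a host it was found at 18 of 58 bound genes (31%) and at 3 of 105 others (2.86%). It was present at 11 of 42 bound snRNA genes (26.2%), at 1 of 57 snRNA genes that were not bound, and at 9 of 18 SL2 spliced leader genes. With 1 mismatch allowed the counts at the members stayed at 11 and 1, while those at snRNA genes were 29 of 42 bound (69%) and 15 of 57 unbound (26.3%), and those at snoRNA genes outside hosts 24 of 58 (41.4%) and 4 of 105 (3.81%). Upstream of all protein-coding genes the exact search found it at 6 of 19973 (0.03%) and the looser one at 28 (0.14%). In equally long windows of the hosts' snoRNA-free introns they found it at 7 and 25 of 8024 (0.0872% and 0.312%). In the bound members the pattern started a median of 58 bases upstream, and 9 of the 11 started between 56 and 62. The summit lay inside the pattern in 6 of the 11.

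The 1 member with the pattern and no peak was C02C6.13, on chromosome X in an intron of lron-3, a leucine-rich repeat gene, and its upstream region (chrX:15552488-15552587, minus strand) is shown as the exception.
C02C6.13: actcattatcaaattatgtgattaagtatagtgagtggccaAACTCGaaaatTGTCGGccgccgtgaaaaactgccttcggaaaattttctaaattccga
Its pattern starts 59 bases upstream, where most of the bound members have theirs. The highest candidate of the pooled list within 250 bp had a signal of 18.9, with its summit 72 bp downstream of the 5' end and so not at the pattern. Replicate 1 gave 10.7 at 67 bp downstream, with no candidate in replicate 2. Both values stand far below those of the bound members.

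A word taken from snRNA genes was searched in the same window, and every bound member with it also carries the split pattern. The word therefore adds no bound members to those of the pattern and is no separate support. CGGAACCC was found in the upstream regions of 15 of 42 bound snRNA genes, tied with GCGGAACC as the most frequent word of 8 bases, and overlaps the first word of the pattern. With at most 1 mismatch it was present at 9 of 35 bound members (25.7%, 14.2 to 42.1%) and at 2 of 148 unbound members (1.35%, 0.371 to 4.79%). The corresponding shares were 18 of 58 (31%) and 8 of 105 (7.62%) at snoRNA genes outside hosts, 28 of 42 and 14 of 57 at snRNA genes, and 161 of 19973 (0.806%) at protein-coding genes. Since the word was chosen for its frequency at bound snRNA genes, the split among snRNA genes is in part fixed by that choice.

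A member was called bound when a summit of the authors' thresholded list of 2101 peaks lay within 250 bp of its 5' end. That held for 35 of 183 (19.1%, 14.1 to 25.4%), through 34 distinct peaks, against 4.03% of all 46890 nuclear genes by the same rule. Of the 163 snoRNA genes outside a same-strand host, 58 were bound (35.6%, 28.6 to 43.2%). That share was 41 of 124 between genes (33.1%) and 16 of 38 in genes on the opposite strand (42.1%). Without summits within 500 bp of a coding 5' end, 30 of the 183 members (16.4%, 11.7 to 22.4%) and 44 of the 163 others (27%, 20.8 to 34.3%) remained. The intervals of the 2 sets are apart in the first count and overlap in the second, and the difference was not tested. The 4.03% of all nuclear genes keeps the summits near coding 5' ends, so it is not a like background for the second count.

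Both replicates gave similar counts. Among the 2101 highest regions of replicate 1, 36 members had a summit (19.7%, against 3.52% of all nuclear genes), and in replicate 2 the number was 38 (20.8%, against 4.02%). In both replicates it was 31 (16.9%, 12.2 to 23%, against 2.52%). All 31 were bound in the thresholded list, and each of the 4 remaining bound members was among the highest regions of a single replicate. No unbound member was among the highest regions of both, though 3 were in replicate 1 and 5 in replicate 2. K07C5.18 and K07C5.10, both in nol-56, are among the 5 through a single shared region. The replicates also feed the pooled and thresholded lists and are not independent of them.

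The pooled signal of the bound members, a value of the authors' peak caller with no stated scale, ran from 54.0 to 820 with a median of 116. The median over all nuclear thresholded peaks was 71.7, and over the bound snoRNA genes outside hosts 134. The members held 8 of the 50 highest nuclear peaks, and the snoRNA genes outside hosts held 13. Only 4 more member peaks were among the 200 highest, where the members held 12 and the genes outside hosts 28. Among all 2075 nuclear peaks the members held 34. Replicate 2 was the higher at 32 of the 34 members listed in both, with a median log2 ratio of 0.78, and the lists may be on different scales. Across these 34 genes, which were chosen on the pooled signal, the log2 signals of the replicates had a Pearson r of 0.923 and a Spearman rho of 0.826.

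**Figure D1:**
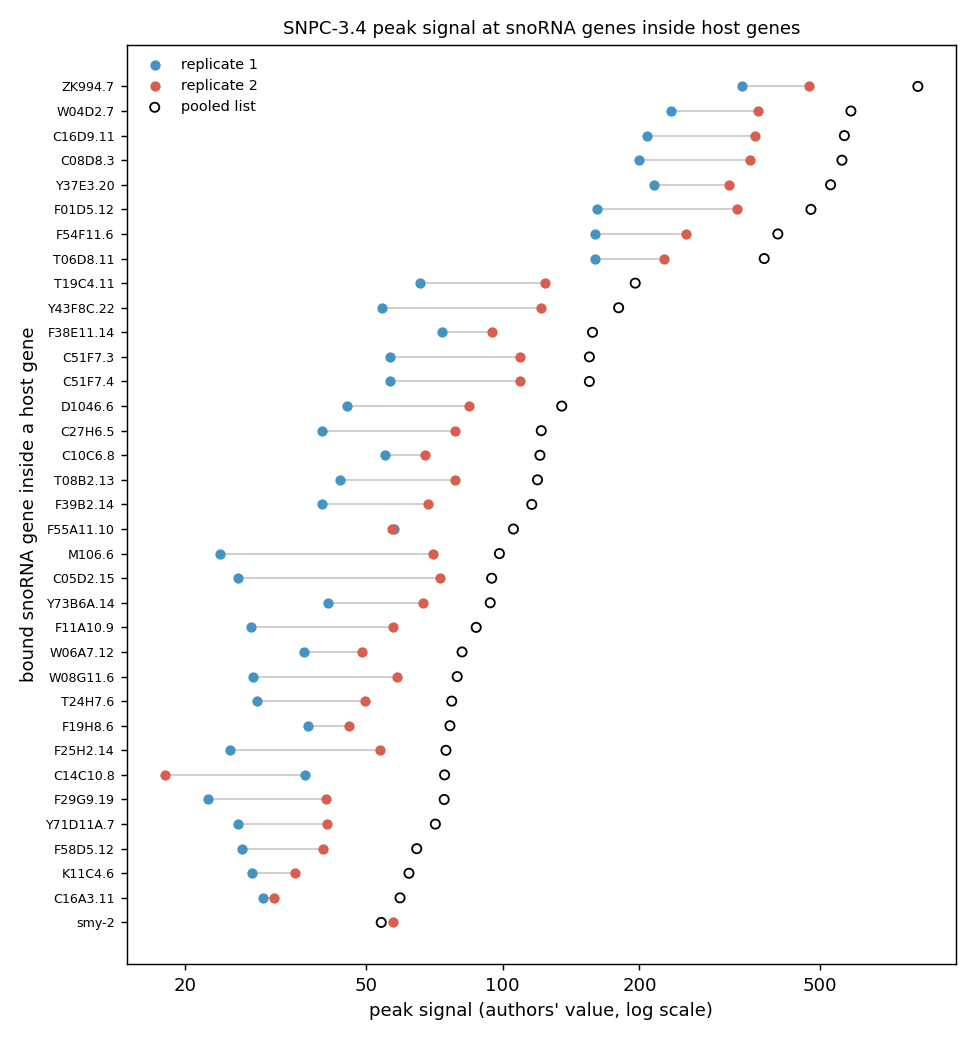
Peak signal (authors' value, log axis) at each of the 35 bound snoRNA genes inside a host, in replicate 1, in replicate 2 and in the pooled list, ordered by the pooled value. The 8 highest genes have pooled signals of 376.5 to 820 and stand apart from the ninth, at 196, and smy-2 has no point for replicate 1.

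The 8 highest members stood apart from the rest in both replicates, each above 159 in replicate 1 and above 226 in replicate 2. ZK994.7 (V:8500579-8500645, plus strand), in an intron of the peroxidasin gene pxn-1, gave a replicate 1 value of 336 and a replicate 2 value of 472, a mean of 404 ± 96.5 (SD, n = 2). W04D2.7 (V:12491280-12491346), in an intron of inx-11, which encodes a gap junction innexin, had 234 and 364 in the same order. C16D9.11 (V:8228900-8228969), in the receptor tyrosine kinase gene rol-3, had 208 and 360. The differences between replicates at these genes go one way, and enter every SD.

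C08D8.3 (V:8349108-8349187), in an intron of C08D8.1, had 199.5 in replicate 1 and 349.5 in replicate 2. Y37E3.20 (I:2085037-2085155), in pcyt-2.1, had 215 and 314, or 265 ± 70.3 (SD, n = 2). F01D5.12 (II:14018354-14018441), in F01D5.10, had 161 and 328. With pooled signals of 558, 527 and 477 these follow closely on one another, and their order differs between the replicates. F54F11.6 (II:13521301-13521471), in sre-45, a gene of a chemoreceptor family, had 160 and 253. T06D8.11 (II:11224182-11224258), in plpr-1, had 159.6 and 226. All 8 carry the split pattern, and the hosts of all 8 differ.

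Below a gap came T19C4.11 (V:11175529-11175706), in gpa-1, a gene of a G protein alpha subunit, with 65.6 in replicate 1 and 124 in replicate 2. Its surroundings are the least unique of any bound member, with 72.6% of 31-base words found once in the genome. Y43F8C.22 (V:19643050-19643187), in Y43F8C.7, had 54.1 and 121.5, and is the highest member without the pattern. F38E11.14 (IV:9477629-9477699), in cng-3, a cyclic nucleotide-gated channel gene, had 73.4 and 94.7. Its summit is also within 500 bp of the 5' end of wrt-3, so the peak cannot be given to the snoRNA gene alone. C51F7.3 (V:12303708-12303783) and C51F7.4 (V:12303599-12303693), both in frm-7, share a single peak of 56.5 and 109. That was the only host gene with more than 1 bound member.

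The 23 bound members after the 12 highest spanned a narrower range, from 22.5 to 57.8 in replicate 1 (median 33.1, 22 listed) and from 18.1 to 109 in replicate 2 (median 57.3). The value of 109 is that of C51F7.4, through the peak it shares with C51F7.3 of the 12 highest. Without it the highest replicate 2 value is 84.1. The largest gap between the replicates was at M106.6, in the condensin gene mix-1, with 23.8 and 70.3, a log2 ratio of 1.56. Its matched summits lie 205 bp upstream of the 5' end in replicate 1 and 87 bp upstream in replicate 2. The pooled summit is 55 bp upstream, so the gap may compare different regions. The opposite case was C14C10.8, in ril-2, with 36.6 in replicate 1 and 18.1 in replicate 2, a log2 ratio of -1.02. That value depends on the region matched, since replicate 2 has another region of 33.9 with its summit 134 bp downstream of the 5' end, and the nearer of the 2 to the pooled summit was taken. Both were picked out after their values had been seen.

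At the lower end, the 3 bound members of lowest pooled signal were K11C4.6, C16A3.11 and smy-2. K11C4.6 (V:6889076-6889145), in the beta-spectrin gene unc-70, had 28.0 in replicate 1 and 34.9 in replicate 2. C16A3.11 (III:6374415-6374548), in the ribosomal protein gene rps-13, had 29.7 and 31.4. The gene smy-2 (IV:9511395-9511466), in C33A12.3, had 57.4 in replicate 2 and no listed region in replicate 1. Its symbol is that of an SmY RNA, a small RNA linked to trans-splicing, although the annotation gives it the biotype snoRNA. The pooled signals of the 3 were 62.2, 59.4 and 54.0.

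The unbound members of highest pooled candidate signal lay close below. Y71F9AM.7 (I:2935785-2935920), in cogc-3, a gene of the conserved oligomeric Golgi complex, had 14.9 in replicate 1 and 37.3 in replicate 2. R166.7 (II:10545199-10545329), in the kinase gene mnk-1, had 16.4 and 34. ZK546.18 (II:4942395-4942519), in the Mediator subunit gene mdt-4, had 14.2 and 32.2. Their pooled signals of 48.55, 47.4 and 45.4 fall below the 54.0 of smy-2, so the boundary of the thresholded list cuts a continuous range. Of the 148 unbound members, 49 had a candidate region in the pooled list, with a median signal of 24.3, and 99 had none. A candidate in both replicates was found at 20 of the 148. One unbound member, F54E7.10 in rps-12, had a replicate 1 region of 65.4 at 240 bp upstream of its 5' end and none in replicate 2. That summit is also 160 bp upstream of the 5' end of rps-12, whose promoter has a thresholded peak of its own, of 176. It was picked out after its values had been seen.

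Summits lay upstream of the 5' end at 29 of 35 bound members and inside or beyond it at 6. The median was 43 bp upstream (quartiles at -54.5 and -16.5 bp), against 51 bp upstream at the bound snoRNA genes outside hosts. A zone of 20 to 80 bp upstream held 21 of the 35 summits (60%, 43.6 to 74.4%) and 41 of 58 at the others (70.7%, 58 to 80.8%). The position was tightest at the high signals: 11 of the 12 highest members had the summit in that zone, and 10 of the remaining 23. The exception among the 12 is C51F7.3, whose summit is 92 bp upstream of it and 17 bp inside C51F7.4. The widest positions, 250 bp upstream at W06A7.12 and 245 bp downstream at F58D5.12, are at the edge of the window, with pooled signals of 81.4 and 64.7.

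**Figure D2:**
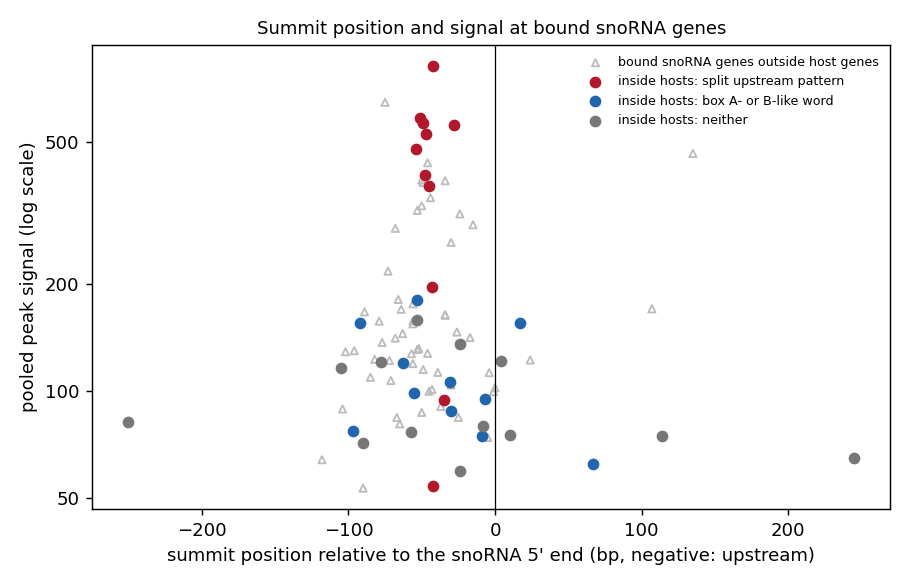
Pooled peak signal (authors' value, log axis) against the summit position relative to the snoRNA 5' end in bp, for 35 bound genes inside hosts (filled circles, coloured by the sequence they carry) and 58 bound snoRNA genes outside hosts (open triangles). All 11 genes with the split upstream pattern lie between 54 and 28 bp upstream, whereas those with neither sequence run from 250 bp upstream to 245 bp downstream.

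A second group of members carried words like the internal promoter elements of tRNA genes, and these are shown to set beside the split pattern. The box A-like word was TGGCNNAGT and the box B-like word GTTCGANNC, searched on both strands from 100 bases upstream to the 3' end. Capitals mark them in the upstream 100 bases of the bound Y43F8C.22 and T24H7.6 and of the unbound ZK546.18 and R166.7, while K07C5.18, in nol-56, has none. The last 3 are the highest unbound candidates whose sequence is printed. K07C5.18 had a pooled candidate of 42.5 and a replicate 2 region of 35.7. Their summits, 183 and 221 bp upstream of its 5' end, lie outside the printed bases. The replicate 2 region is among the 2101 highest of that replicate. It is also the region listed for K07C5.10, another member in nol-56.
Y43F8C.22: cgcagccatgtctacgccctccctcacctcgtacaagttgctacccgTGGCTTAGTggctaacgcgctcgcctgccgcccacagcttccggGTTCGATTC
T24H7.6: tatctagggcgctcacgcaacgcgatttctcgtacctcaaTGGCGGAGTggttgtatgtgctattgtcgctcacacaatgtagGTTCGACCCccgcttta
ZK546.18: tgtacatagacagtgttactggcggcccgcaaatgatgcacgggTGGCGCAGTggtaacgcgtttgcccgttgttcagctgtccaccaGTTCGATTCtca
R166.7: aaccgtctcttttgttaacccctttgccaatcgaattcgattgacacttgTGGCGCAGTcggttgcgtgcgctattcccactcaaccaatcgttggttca
K07C5.18: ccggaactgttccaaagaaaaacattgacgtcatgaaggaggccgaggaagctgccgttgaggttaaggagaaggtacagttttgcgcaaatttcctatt
The regions are chrV:19643188-19643287 (minus strand), chrII:6248617-6248716 (plus), chrII:4942520-4942619 (minus), chrII:10545330-10545429 (minus) and chrV:10350913-10351012 (minus). The first 3 are all of the members with both words. Box A starts 53, 60 and 56 bases upstream in them, and box B 9, 17 and 12 bases upstream.

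A box A- or B-like word was present at 11 of 35 bound members (31.4%, 18.6 to 48%) and at 10 of 148 unbound ones (6.76%, 3.71 to 12%). At snoRNA genes outside hosts it was present at 15 of 58 bound (25.9%) and 13 of 105 unbound genes (12.4%), and at protein-coding genes, in a window from 100 bases upstream to 120 bases inside, at 563 of 19973 (2.82%). On the gene's own strand, all 9 members with box A had it starting 50 to 67 bases upstream. Of the 13 with box B on that strand, 8 had it 5 to 20 bases upstream. C51F7.3 and C51F7.4 hold overlapping windows here too, so they are not independent. No member had both the split pattern and a box word, and 13 bound members had neither.

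The sequence groups are set side by side here. Among members with the split pattern 11 of 12 were bound, and 5 of 6 without those it was written from (83.3%, 43.6 to 97%). Among those with a box word 11 of 21 were bound (52.4%, 32.4 to 71.7%), and among the 150 with neither 13 (8.67%, 5.13 to 14.3%). Of the last, 4 have the summit near a coding 5' end too, which leaves 9 without them (6%, 3.19 to 11%). The share over all nuclear genes was not counted without such summits, so those 9 have no like background here. The median pooled signal was 477 for bound members with the pattern (range 54.0 to 820), 98.4 for those with a box word (62.2 to 180) and 79.4 for those with neither (59.4 to 158). The range of the first group therefore covers those of the other 2. In replicate 1 the medians were 180, 36.6 and 36.6, and in replicate 2 they were 314, 70.3 and 53.6. Since the pattern was written from 6 of the highest members, its share and its median are in part fixed by that choice. The 5 remaining bound members with it had a median pooled signal of 196 (54.0 to 527).

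**Figure D3:**
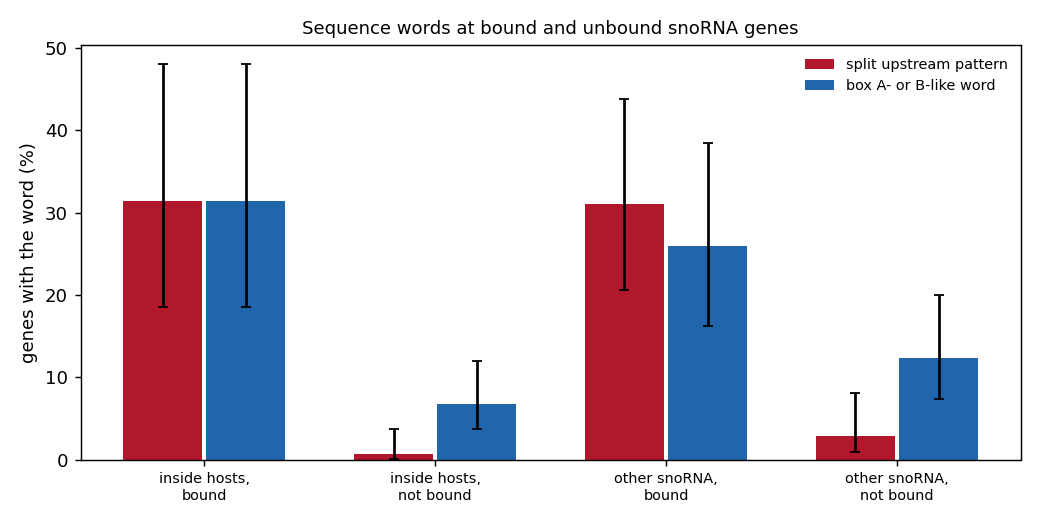
Percentage of genes with the split upstream pattern and with a box A- or B-like word, at bound and unbound snoRNA genes inside hosts (35 and 148) and outside hosts (58 and 105). Bars start at 0 and error bars are 95% Wilson intervals. In both sets both sequences have the higher bar at bound genes, but the intervals of the box words outside hosts overlap. Of the bound genes inside hosts, 6 were used to write the pattern, which without them is at 5 of 29.

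Summits were found in the introns that hold the snoRNA genes and in few of the other introns of the host genes. Of the 183 members, 145 lie in an intron, 5 in an intron of some transcripts and 33 overlap an exon. Bound were 30 (20.7%), 1 and 4 (12.1%) of these. All 31 bound members in introns had the summit in the same intron. Of the 142 introns that hold a member, 31 held a summit (21.8%, 15.8 to 29.3%), against 10 of 1208 snoRNA-free introns of the same host genes (0.828%, 0.45 to 1.52%) and 0.381% of all introns of nuclear protein-coding genes. Introns with a member are longer, with a median of 374.5 bp against 125.5 bp. Among introns of at least the first of these lengths the counts were 14 of 71 (19.7%) and 5 of 418 (1.2%), with median lengths that still differ, at 1440 and 875.5 bp. Per 10 kb of intron there were 1.56 and 0.142 summits, and 0.845 and 0.0798 among the longer introns. In the hosts with a bound member, 7 of 250 snoRNA-free introns held a summit (2.8%, 1.36 to 5.67%), or 0.744 per 10 kb. The part of intron length in these shares was not tested.

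The space between the upstream exon and the snoRNA gene also differed. With less than 100 bp of it, 6 of 64 members were bound (9.38%, 4.37 to 19%), with 100 bp to under 200 bp 12 of 25 (48%, 30 to 66.5%), with 200 bp to under 500 bp 8 of 23 (34.8%, 18.8 to 55.1%), and with 500 bp or more 5 of 38 (13.2%, 5.75 to 27.3%). The share was highest from 100 bp to under 200 bp, with an interval apart from those of the shortest and longest distances. The interval of 200 bp to under 500 bp overlaps all the others, so no full order could be read. Bound members lay a median of 171 bp from the upstream exon and unbound ones 106 bp, while the medians to the downstream exon were 57 and 143 bp. Every bound member with the split pattern had at least 149 bp upstream.

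**Figure D4:**
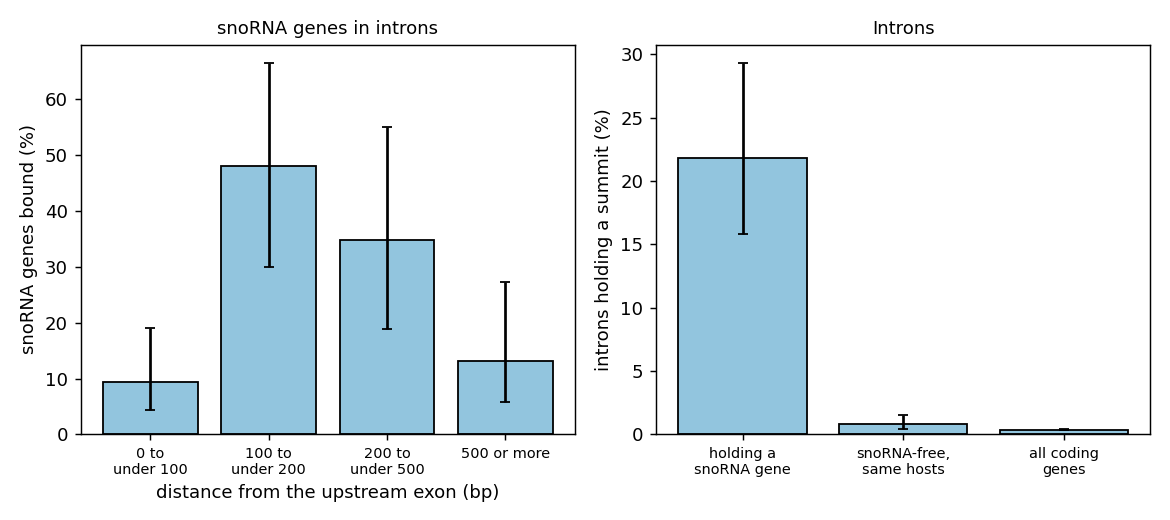
Left, the percentage of snoRNA genes in introns that were bound, by their distance from the upstream exon in bp (64, 25, 23 and 38 genes); right, the percentage of introns holding a summit, for 142 introns with a snoRNA gene, 1208 snoRNA-free introns of the same hosts and 104867 introns of all nuclear protein-coding genes. Bars start at 0 and error bars are 95% Wilson intervals; the bar of 100 bp to under 200 bp is the highest on the left, at 48%, and the introns with a snoRNA gene reach 21.8% on the right.

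Promoters of the host genes were compared next, to see whether peaks there went with peaks at the snoRNA genes. A host promoter was called bound with a summit within 500 bp of the 5' end of the host, which held for 7.04% of all protein-coding genes and for 33 of 156 host genes (21.2%). Counted by member, it was 7 of 35 for the bound (20%, 10 to 35.9%) and 39 of 148 for the unbound (26.4%, 19.9 to 34%), and the 2 intervals overlap. Members of the same host share its promoter, so they are not independent and these intervals are too narrow. More than 1 member lies in 23 of the hosts. Among them rpl-6 and top-2, both with a bound promoter, hold 3 unbound members each. In 3 of the 7 the snoRNA gene and the host promoter share the peak, namely F39B2.14 in tmem-107, F25H2.14 in tct-1 and C16A3.11 in rps-13. In those the 2 cannot be told apart. These counts take the outermost annotated 5' end of the host. With any coding transcript start of the host, 11 of 35 bound members (31.4%) had a bound host promoter. Shared peaks and unbound members were not counted that way. The summits of bound members lay a median of 2835 bp from the 5' end of the host, with a range of 44 to 16020 bp. At ZK994.7 the host promoter of pxn-1 had its own peak of 58.6, against 820 at the snoRNA gene.

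Ribosomal protein genes, the classical hosts of snoRNAs, were examined by themselves, taken as hosts whose symbol starts with rpl- or rps-. Any ribosomal protein gene under another symbol is counted with the other hosts. Of 13 such host genes 8 had a bound promoter, and of the 19 members inside them 1 was bound (5.26%, 0.935 to 24.6%), C16A3.11, through the peak it shares with rps-13. In other hosts 34 of 164 members were bound (20.7%, 15.2 to 27.6%), and the intervals overlap. All 19 lie within 72 bp of the upstream exon. The 4 members in nol-56, the gene of a box C/D core protein and the host with the most members, were all unbound. Members with another snoRNA gene within 500 bp were bound at 3 of 34 (8.82%, 3.05 to 23%) and those without at 32 of 149 (21.5%, 15.6 to 28.7%), where the intervals overlap as well.

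The type of guide RNA was read from the sequence with a strict rule. Box C/D-type members have TGATGA in the first 20 bases and CTGA in the last 20. Box H/ACA-type members have ACA in the last 6 bases and at least 100 bases in length. Bound were 2 of 6 box C/D-type members (33.3%, 9.68 to 70%), 9 of 56 box H/ACA-type members (16.1%, 8.69 to 27.8%) and 24 of 121 with no type (19.8%, 13.7 to 27.8%). The intervals overlap, so no order by type could be read. The gene bodies of a pair of members show the rule, F55A11.10 (chrV:11782992-11783082, plus strand) with both boxes in capitals and ZK994.7 (chrV:8500579-8500645, plus), the highest member, which the rule leaves without a type.
F55A11.10: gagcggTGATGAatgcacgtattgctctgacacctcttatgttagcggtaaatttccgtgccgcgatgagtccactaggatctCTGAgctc
ZK994.7: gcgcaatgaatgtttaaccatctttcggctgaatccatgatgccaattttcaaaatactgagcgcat
None of the 8 highest members received a type, and 7 of the 8 have fewer than 120 bases. Bound members had a median length of 118 bases, the 12 highest of them 78.5, and unbound members 129. F55A11.10 gave 57.8 in replicate 1 and 57.2 in replicate 2, with summits 33 bp downstream and 86 bp upstream of its 5' end. Its pooled summit is also within 500 bp of the 5' end of the coding gene F55A11.11.

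Bound members were also counted by chromosome. Chromosome V held 15 of them among 36 members (41.7%, 27.1 to 57.8%), and 7 of the 12 highest. The counts were 5 of 36 on I (13.9%, 6.08 to 28.7%) and 6 of 35 on II (17.1%, 8.1 to 32.7%). On III they were 3 of 38 (7.89%, 2.72 to 20.8%), on IV 6 of 28 (21.4%, 10.2 to 39.5%) and on X 0 of 10 (0%, 0 to 27.8%). The interval of V lies apart from that of III and overlaps the rest. For snoRNA genes outside hosts the counts were 12 of 38 on I (31.6%), 13 of 36 on II (36.1%) and 7 of 16 on III (43.8%). On IV they were 16 of 31 (51.6%), on V 7 of 19 (36.8%) and on X 3 of 23 (13%). The share over all nuclear genes was not counted by chromosome.

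Of 11 genes matched from a list of proteins that work with snoRNAs, 5 had a summit within 500 bp of the 5' end, against the 7.04% of all protein-coding genes. The highest was dkc-1 (III), the gene of dyskerin, the pseudouridine synthase of box H/ACA particles, with 53.8 in replicate 1 and 106 in replicate 2. Further box H/ACA genes were Y48A6B.3 (III), the NHP2 homologue, with 39.8 and 51.1, and garr-1 (IV), the GAR1 homologue, with 22.5 and 42.9. The box C/D core gene nol-58 (I) had 18.0 and 31.5, and ruvb-2 (IV), a gene of an assembly helicase, had 36 and 45.9. The remaining 6 were fib-1, which encodes the methyltransferase fibrillarin, nol-56, snu-13, nola-3, ruvb-1 and dao-5, and none had a thresholded summit there. Summits of the 5 lay 119 to 430 bp upstream. They were sought within a wider window than at the snoRNA genes, and trans-splicing makes the annotated 5' ends of worm mRNAs inexact.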

How the data were processed

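Peak lists on ce11 (WBcel235) were used for both biological replicates, their pool and the thresholded list. The authors called peaks against a control and thresholded them by irreproducible discovery rate, per the deposited notes. The sources used here name no peak caller or aligner, and the control was not analysed here. The signal per region is the authors' deposited value, with no stated scale, and was used mainly for order within a list. The replicate means, SDs, log2 ratios and Pearson r treat it as a quantity, although the lists may be on different scales. The position of a summit is the authors' offset from the region start.

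Genes and introns came from Ensembl release 115, and bases from the RefSeq WBcel235 genome. Coordinates are 1-based. Summits were sought within 250 bp of snoRNA 5' ends and 500 bp of coding 5' ends. At bound members the replicate value is that of the candidate whose summit is nearest the pooled summit within 250 bp, and at unbound members that of the highest candidate within 250 bp of the 5' end. The highest regions of a replicate are its 2101 of highest signal, out of 30000. Wilson intervals (95%) cover counting over genes only. The shares over all genes or introns are given as background, and gene sets were not tested against each other. Words were searched in the stated windows, and the 31-base words that measure uniqueness run from 250 bp upstream to 100 bp downstream of the 5' end.

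The members, lists and comparisons were chosen with earlier results of these data known. Named genes are the 12 highest and 3 lowest bound members, the 3 highest unbound candidates, bound members that share a host, bound members on X (there were 0) and the bound snoRNA-protein genes. Sequences were chosen as the 6 highest bound members and 3 highest unbound candidates outside 1 chromosome that is not printed. The sequences of Y43F8C.22, T24H7.6 and C02C6.13, both gene bodies, the split pattern and F54E7.10 were added after values were seen. The peak search was tested on simulated data. Software was matplotlib 3.10.9, SciPy 1.17.1, pandas 2.3.3, NumPy 2.4.6 and Python 3.11.15.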

Additional observations from a re-analysis of the deposited data

How the results depend on the processing

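Alternatives were held to 3 tolerances: a factor of 1.5 for counts, the main 95% Wilson interval for shares, and the SD between single replicates for medians. By these, 60 of 72 alternative values stayed within, 12 moved and 0 reversed. The 60 include the split pattern put in place of the snRNA word. Part of the bound members served to write that pattern, so its staying within was partly fixed in advance. The interval is wide for small counts and the SD narrow for positions. The count of bound members ranged from 30 to 44, and that of other snoRNA genes fell from 58 to 44 without summits near coding 5' ends. Leaving out a replicate gave 36 and 38 bound members, and median signals of 42.5 and 67.9 against 116 in the pooled list, on other scales. The median summit, at -43 bp, was at -46 bp with the 1000 highest regions, with a 500 bp window and with members in introns only, and at -44 bp with region overlap and without summits near coding 5' ends. Single replicates differed by an SD of 0.707 bp. With the 1000 highest regions, 10% of bound members had a bound host promoter against 20%, while any coding transcript start of the host gave 31.4% and a 500 bp window 34.1%. With the 1000 highest regions, 0.0828% of snoRNA-free host introns held a summit against 0.828%. With a 500 bp window, 16 box H/ACA-type members were bound against 9. The exact word, chosen after the data were seen, was at 11.4% of bound members against 25.7%, and at 0% of unbound members against 1.35%. The causes were not tested. No paired analysis was possible because the samples form 1 group and no result comes from a test. Depth is unknown, so members near the threshold of the list cannot be placed firmly on either side of it.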
